A study of Homo sapiens with 28 samples.

Results

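IRX5, MRPL23, NPAS1, ANKRD7, GAS8 and MDN1 are the 6 genes at the m6A regions that stood out most on RBFOX2 knockdown (KD) in NB4 cells. They were selected on the NB4 comparison itself, from 22320 annotated genes with a peak in at least 1 of 14 lists. A region was a set of overlapping peaks on 1 strand. It was called lost when every NB4 Control list and no NB4 KD list held a peak there, and gained in the opposite case, and regions were ranked by their mean percentile, the percent of peaks in the same list with a lower -log10 q. IRX5, MRPL23 and NPAS1 held the 3 lost regions with the highest rank, and ANKRD7, GAS8 and MDN1 held gained regions of rank 1, 3 and 4. All values from the NB4 comparison are therefore given as a description, with no test. Peaks were credited to a gene when their summit lay between 1000 bases upstream of its start and its end, on either strand.

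The data are chromatin-associated RNA (caRNA) profiled by MeRIP-seq, in which an antibody to N6-methyladenosine (m6A) enriches the RNA fragments that carry this base. Of 28 samples, the 14 immunoprecipitated (IP) libraries each had a list of peaks, and the inputs are not analysed here. NB4, an acute promyelocytic leukaemia line, was represented by 3 Control and 3 RBFOX2 KD libraries. K562, a chronic myelogenous leukaemia line, had 2 WT, 2 Control and 2 RBFOX2 KD libraries, and the hepatoma line HepG2 had 2 WT libraries. KD cells had been transduced with lentivirus carrying a short hairpin RNA against RBFOX2 and Control cells with a non-targeting hairpin, and which of the available RBFOX2 hairpins a library carried is not given. The study calls its replicates biological, and neither the labels nor its methods say whether those of a group came from separately transduced cultures. The study asks whether RBFOX2, an RNA-binding protein, directs m6A to RNA held at chromatin.

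The lists held 22700 to 44088 peaks. Effective reads (M, 1e+06 reads), recovered from the background level of each list, were 10.8 to 17.2 M in NB4 Control, 16.8 to 21.9 M in NB4 KD, 12.6 to 19.5 M in K562 Control and KD, and 24.9 to 32.9 M in the WT libraries. Marker genes of each line had peaks mainly in that line: 3 of 5 liver markers in both HepG2 lists and in no leukaemia list, 4 to 5 of 5 erythroid markers in K562 and at most 1 in NB4, and 3 to 4 of 5 neutrophil granule markers in NB4 and at most 1 in K562.

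m6A is written on RNA, mainly within the sequence context DRACH (D is A, G or T, R is A or G, and H is A, C or T), by a methyltransferase complex while the RNA is being made. On caRNA it can mark promoter RNA, antisense RNA and introns as well as exons. The 6 genes have unrelated roles. IRX5 is a homeodomain transcription factor of the Iroquois family. MRPL23 encodes a protein of the large subunit of the mitochondrial ribosome. NPAS1 is a transcription factor with bHLH and PAS domains, best known from neurons. ANKRD7 encodes an ankyrin repeat protein expressed mainly in testis. GAS8, also called DRC4, is a subunit of the nexin-dynein regulatory complex of motile cilia. MDN1, or midasin, is a very large ATPase that releases assembly factors from precursors of the large ribosomal subunit.

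The sequences around the selecting summits of IRX5, MRPL23, NPAS1 and MDN1 show which RNA strand was enriched and where it lies. Each runs 5′ to 3′ on the strand of the region, from hg38, within 75 bases of the summit, with DRACH matches in capitals. Bases annotated as untranslated region (UTR) on either strand were left out, so 32 bases are missing for MRPL23 and 10 for NPAS1.
IRX5, chr16:54930409-54930559, plus strand: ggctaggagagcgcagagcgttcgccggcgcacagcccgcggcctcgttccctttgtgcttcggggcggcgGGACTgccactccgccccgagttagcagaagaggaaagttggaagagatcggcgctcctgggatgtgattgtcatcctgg
MRPL23, chr11:1972794-1972912, plus strand: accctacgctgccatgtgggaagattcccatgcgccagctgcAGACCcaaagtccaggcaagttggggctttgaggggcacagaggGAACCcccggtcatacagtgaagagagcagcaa
NPAS1, chr19:47040855-47040995, minus strand: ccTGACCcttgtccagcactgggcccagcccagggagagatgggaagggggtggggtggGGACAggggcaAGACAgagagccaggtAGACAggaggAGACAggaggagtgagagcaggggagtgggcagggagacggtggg
MDN1, chr6:89662150-89662300, minus strand: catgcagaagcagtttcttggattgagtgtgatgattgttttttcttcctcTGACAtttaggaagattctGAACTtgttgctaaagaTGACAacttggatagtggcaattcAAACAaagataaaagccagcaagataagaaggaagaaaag

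DRACH occurred in each of these 4 windows of 151 bases, with the nearest match 1 to 4 bases from the summit. Of all 52807 NB4 regions, 94.8% had a match in a window of the same length. GGACT, the most usual form of DRACH, was in the window of IRX5 and in 22.2% of all windows. The motif TGCATG, the usual site of RBFOX2, was in 0 of the 4 windows and in 3.39% of all windows. AGATG, a sequence that the study links to RBFOX2, was in the NPAS1 and MDN1 windows and in 24.5% of all windows. Motifs were read on the strand of the region only.

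**Figure D1:**
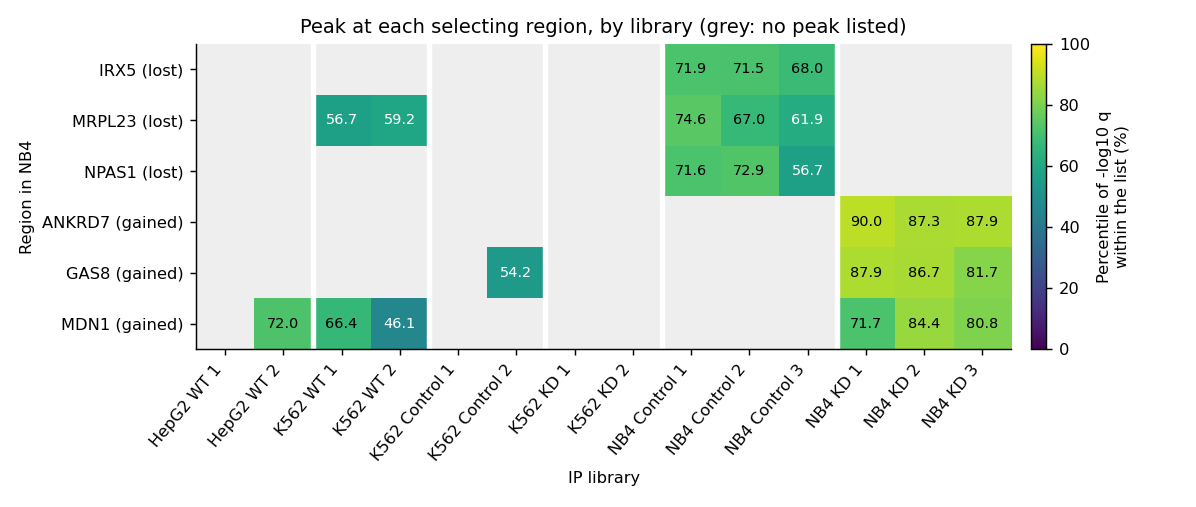
Percentile of -log10 q (color and number, %) of the peak at each of the 6 selecting regions (rows) in each of the 14 IP libraries (columns), with grey cells where no peak was listed. The lost regions are filled in the 3 NB4 Control columns and the gained regions in the 3 NB4 KD columns, which the selection fixes, and MRPL23, GAS8 and MDN1 were also listed in some HepG2 or K562 libraries.

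The region lost at IRX5 was promoter RNA on the strand of the gene. It spanned 262 bases (chromosome 16, 54930364 to 54930625, plus strand), with the summit 381 bases upstream of the start of IRX5 (ENSG00000176842.16, 54930865 to 54934485, plus strand). On the opposite strand, 225 of its bases overlapped the lncRNA ENSG00000289307, and the lncRNA CRNDE began 1175 bases away. The fold of the summit over the local background was 10.99, 9.84 and 8.62 in NB4 Control 1, 2 and 3, at percentiles 71.9, 71.5 and 68.0. The 3 Control libraries lay close together, with a mean percentile of 70.4 ± 2.12 (SD, n = 3), and no KD library listed a peak within 1993 bases.

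RNA of IRX5 itself was still enriched in KD cells. A region in exon 3 of 3 was listed in all 6 NB4 libraries, at percentiles 64.1, 69.7 and 69.2 in Control and 76.4, 62.1 and 57.1 in KD, and the groups overlapped. A region in exon 2 was also listed in all 6, at 6.51, 81.0 and 14.5 in Control and 58.5, 25.9 and 54.3 in KD, again with overlap and with a wide spread within Control. The only other IRX5 region was a single peak in NB4 Control 2, 72 bases upstream of the start. NB4 Control lists thus held 4, 4 and 3 IRX5 peaks and KD lists 2, 2 and 3. Outside NB4 the gene had 1 peak in K562 Control 2, at percentile 14.1, and 0 peaks in the other 7 libraries.

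The region lost at MRPL23 lay far beyond the main transcript. It covered 207 bases (chromosome 11, 1972719 to 1972925, plus strand), with the summit 25559 bases downstream of the start of the gene (ENSG00000214026.11, 1947278 to 1984522, plus strand). The canonical transcript ends 16237 bases before that summit. Its first bases fall in exon 5 of the alternative transcripts MRPL23-203 and MRPL23-204, and the remainder in the last intron of MRPL23-204. Fold was 11.5, 9.09 and 7.83 in NB4 Control 1, 2 and 3, at percentiles 74.6, 67.0 and 61.9 (mean 67.8 ± 6.40, SD, n = 3).

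A second MRPL23 region began 257 to 281 bases away from it in the KD lists, and was present in both groups at different levels. At this region (chromosome 11, 1973179 to 1973817, plus strand) the percentiles were 89.2, 81.0 and 86.6 in NB4 Control and 71.8, 54.2 and 35.9 in KD. All 3 KD values lay below all 3 Control values, with a mean of 85.6 ± 4.21 (SD, n = 3) for Control and 53.9 ± 17.9 (SD, n = 3) for KD. Fold went the same way, from 10.2, 9.75 and 9.10 to 8.36, 6.68 and 5.33. This is the same NB4 contrast that chose the gene, so no test is given. Nor is the share of all NB4 regions in which KD lies wholly below Control given here.

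MRPL23 was the only lost region of the 3 that another line listed. Both K562 WT libraries had it, at fold 7.05 and 7.36 and percentiles 56.7 and 59.2, together with the second region at percentiles 67.7 and 68.3. No K562 Control or KD library had any MRPL23 peak, and effective reads were 24.9 and 25.6 M in K562 WT against at most 19.5 M in those 4. The part of depth in this difference was not tested. Both HepG2 libraries listed instead a region near the end of the gene on the opposite strand, at percentiles 33.9 and 59.9.

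The region lost at NPAS1 was antisense to the gene. It spanned 230 bases on the minus strand (chromosome 19, 47040813 to 47041042), opposite intron 9 and exon 10 of NPAS1 (ENSG00000130751.10, 47019837 to 47045775, plus strand). The nearest gene on its own strand, TMEM160, lies 4.98 kb from the summit, downstream of NPAS1. Fold was 11.2, 9.31 and 7.01 in NB4 Control 1, 2 and 3, at percentiles 71.6, 72.9 and 56.7, with Control 3 lower than the other 2 (mean 67.1 ± 9.02, SD, n = 3). It was listed in no other library, although a second antisense region began 785 to 803 bases away in the NB4 KD lists.

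That second antisense region (chromosome 19, 47038886 to 47040028, minus strand) had a peak in every library but those of HepG2. In NB4 its percentiles were 71.7, 59.5 and 69.3 in Control and 28.3, 48.1 and 68.1 in KD, and the groups overlapped because of KD 3. In K562 they were 58.2 and 53.3 in Control and 60.2 and 57.6 in KD. On the sense strand the NPAS1 region of intron 5 of the canonical transcript also held the annotated starts of NPAS1-201, NPAS1-203 and NPAS1-204. It was among the highest peaks of NB4, at 89.2, 94.4 and 98.8 in Control and 97.9, 98.6 and 90.5 in KD, with overlapping groups. The same region was at 71.8 and 71.2 in HepG2, at 29.05 and 21.4 in K562 WT, and not listed in K562 Control or KD. A region in the last exon was at 77.5, 84.6 and 85.5 in NB4 Control and 81.1, 79.9 and 64.9 in KD. NPAS1 had 6 peaks in each NB4 Control library and 7, 6 and 5 in KD.

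**Figure D2:**
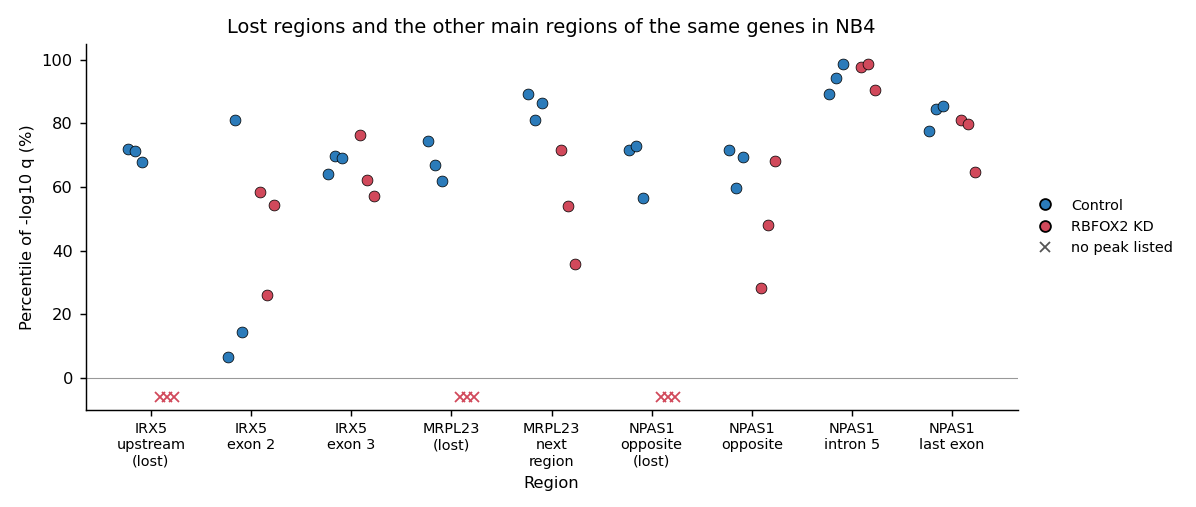
Percentile of -log10 q (y axis, %) in the 3 NB4 Control (blue) and 3 NB4 RBFOX2 KD (red) libraries at the lost regions of IRX5, MRPL23 and NPAS1 and at the other main regions of these genes (x axis), with crosses below 0 where no peak was listed. KD points lie below all Control points at the second MRPL23 region, and the groups overlap at the IRX5 exons and the other NPAS1 regions.

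Regions gained on RBFOX2 KD in NB4 differed among themselves in kind. The ANKRD7 region was antisense, distal and part of a cluster, whereas those of GAS8 and MDN1 were exonic and in the sense direction.

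The ANKRD7 region had the highest rank of all 1937 gained regions. It spanned 919 bases on the minus strand (chromosome 7, 118271389 to 118272307), opposite the gene (ENSG00000106013.15, 118214669 to 118496171, plus strand), and 29129 bases beyond the end of the canonical transcript at the summit. No minus-strand gene is annotated near it, the nearest being a lncRNA at 268 kb. Fold was 13.5, 13.1 and 13.99 in NB4 KD 1, 2 and 3, from 179, 150 and 146 overlapping reads, each extended to 150 bases, over local means of 12.3, 10.54 and 9.51. The percentiles were 90.0, 87.3 and 87.9 (mean 88.4 ± 1.42, SD, n = 3), the smallest spread among the 6 selecting regions.

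Antisense peaks clustered around it. NB4 KD lists held 10, 8 and 9 peaks opposite ANKRD7 and NB4 Control lists 0, 1 and 1, while no list held a peak on the strand of the gene. These formed 9 regions in NB4, of which 5 were called gained, beside 3.67% of all NB4 regions. Both counts include the selecting region that chose the gene, so nothing is read from the difference between groups. The 4 gained regions besides the selecting region had mean KD percentiles of 67.0 ± 10.4, 43.0 ± 24.8, 40.8 ± 3.68 and 14.99 ± 6.06 (SD, n = 3 each). The Control peaks lay at both flanks of the selecting region, at percentile 36.3 in Control 3, where KD lists had 75.5, 80.6 and 75.3, and at 9.69 in Control 2, where KD lists had 69.5, 48.3 and 75.6. When peaks within 150 bases of each other were merged, the selecting region joined its neighbours into 1 region with a peak in 2 Control lists. Its call of a gain was then lost. The gained regions at mean percentiles of 67.0 and 43.0 lay farther off and were not part of this merged region. In the other lines ANKRD7 had only 1 peak each in K562 Control 1 and K562 KD 1, at another place of the gene and at percentiles 21.0 and 27.6.

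**Figure D3:**
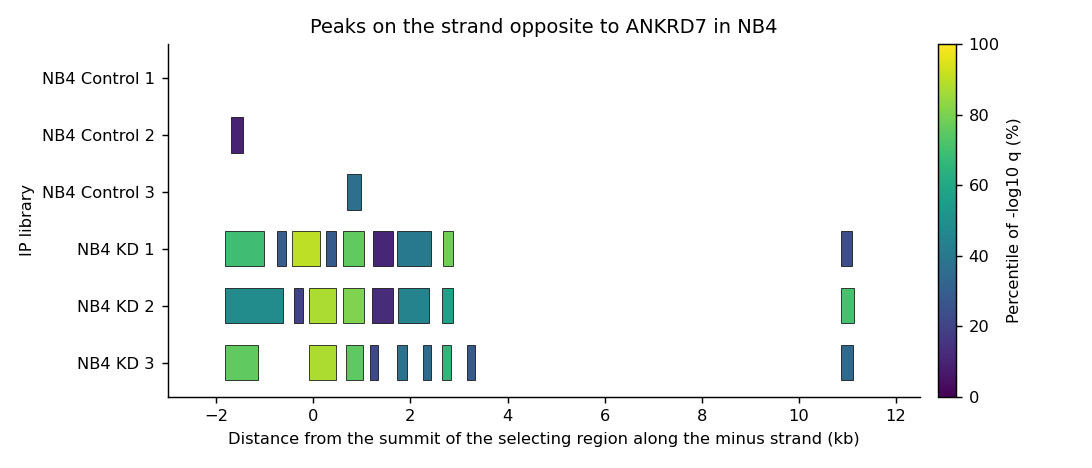
Peaks on the strand opposite ANKRD7 in the 6 NB4 libraries (rows), drawn at their distance in kb from the summit of the selecting region along the minus strand (x axis) and colored by percentile of -log10 q (%). The 3 KD rows hold 8 to 10 peaks each in the gene window, of which 1 in KD 1 lies outside the range drawn, and the Control rows hold 0, 1 and 1.

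At GAS8 the gained region lay in an exon. It covered 173 bases on the strand of the gene (chromosome 16, 90031258 to 90031430, plus strand), over the end of intron 2 and the coding exon 3 of 11 of the canonical transcript, and within a 5′ UTR exon of alternative transcripts of GAS8 (ENSG00000141013.17, 90019629 to 90044975). Fold was 7.17, 6.55 and 6.91 in NB4 KD 1, 2 and 3, from 247, 240 and 179 overlapping reads over local means of 33.6, 35.8 and 25.0. The percentiles were 87.9, 86.7 and 81.7 (mean 85.4 ± 3.26, SD, n = 3), and the nearest NB4 Control peak was 2416 to 2503 bases away. K562 Control 2 also listed the region, at fold 6.35 and percentile 54.2, and K562 Control 1 and both KD libraries did not.

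A further GAS8 region, in intron 4, was gained in NB4 at lower percentiles of 34.7, 22.98 and 7.65 in KD. In K562 it was listed in Control 2 at 42.5 and in both KD libraries at 44.3 and 13.3, and not in Control 1. Another intron 4 region was present in both NB4 groups, at 51.0, 57.9 and 40.3 in Control and 43.1, 18.0 and 39.9 in KD. The main peak of the gene, in the last exon, was listed in all 14 libraries. Its percentiles were 98.7, 98.4 and 94.0 in NB4 Control and 85.4, 96.8 and 98.8 in KD, so the groups overlapped, although fold varied from 4.78 in KD 1 to 22.6 in Control 1. GAS8 peak numbers were 4, 4 and 3 in NB4 Control and 6, 8 and 6 in KD. The KD numbers include the selecting region and the other gained region, which by the call are in KD lists only, so nothing is read from this difference. The lncRNA GAS8-AS1 lies on the opposite strand 1357 bases from the selecting region, and no list held a peak opposite that region.

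The MDN1 region was gained in a gene with many peaks. It covered 172 bases (chromosome 6, 89662147 to 89662318, minus strand) across the end of intron 86 and exon 87 of 102 of MDN1 (ENSG00000112159.13, 89642498 to 89819794, minus strand), an exon that is coding. Fold was 3.30, 4.74 and 5.46 in NB4 KD 1, 2 and 3, the lowest of the 6 selecting regions, over high local means of 89.8, 61.2 and 38.0 reads. Reads at the summit numbered 299, 294 and 212, and the percentiles were 71.7, 84.4 and 80.8 (mean 79.0 ± 6.58, SD, n = 3). A peak in the next exon upstream, exon 86, ended 540 to 556 bases away in the NB4 Control lists.

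The other main MDN1 regions were listed in both NB4 groups. Of the 22 regions of the gene, 4 were listed in all 14 libraries, in exons 63, 79, 90 and 102, the last of these in the 3′ UTR. The exon 86 region was at percentiles 85.2, 86.3 and 80.0 in NB4 Control and 82.1, 82.7 and 70.8 in KD, with overlap. At 3 coding exons nearer the 3′ end, all KD values lay above all Control values. This is the same NB4 contrast that chose the gene. The share of all NB4 regions whose groups separate in this way is not given here. In exon 93 the KD values were 91.3, 91.1 and 87.2 against 80.4, 85.7 and 81.1 in Control. In exon 90 they were 80.3, 81.1 and 73.9 against 65.1, 69.9 and 56.9, and in exon 89 they were 60.1, 65.5 and 73.0 against 39.9, 21.1 and 44.8. In the exons 63 and 79 and in the 3′ UTR the groups overlapped. MDN1 had 10, 9 and 11 peaks in NB4 Control and 9, 10 and 10 in KD.

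The selecting region of MDN1 was the most widely listed of the gained regions. HepG2 WT 2 had it at fold 3.57 and percentile 72.0, K562 WT 1 at 5.32 and 66.4, and K562 WT 2 at 3.45 and 46.1. HepG2 WT 1 and the 4 K562 Control and KD libraries did not list it.

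**Figure D4:**
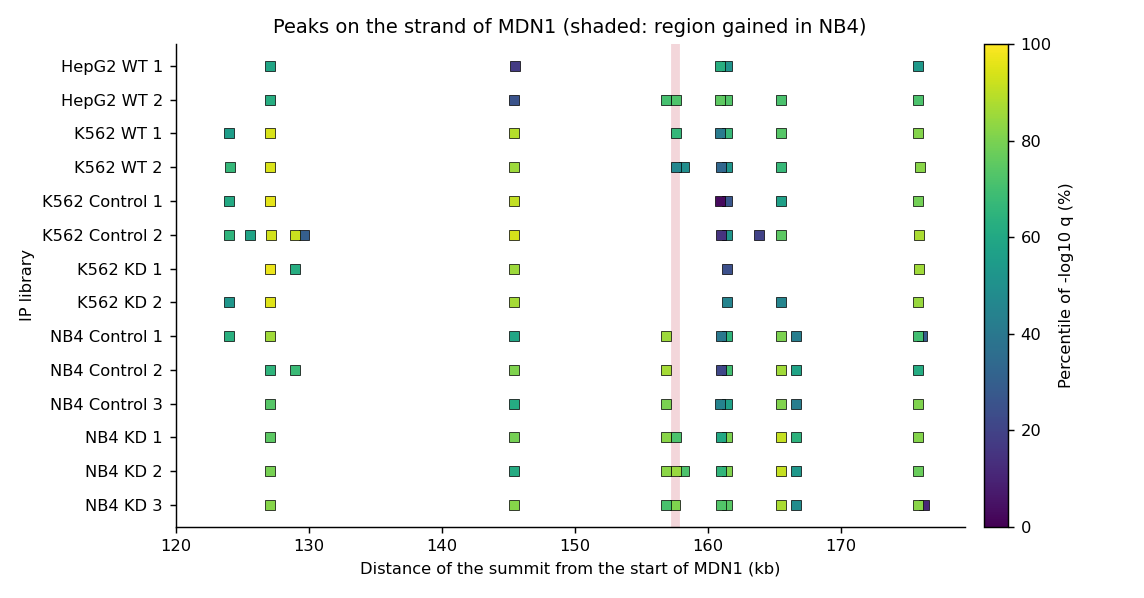
Summits of peaks on the strand of MDN1 in all 14 IP libraries (rows), at their distance in kb from the start of the gene (x axis, from 120 kb to beyond the gene end), colored by percentile of -log10 q (%). The gained region (shaded) holds squares in the 3 NB4 KD rows, both K562 WT rows and HepG2 WT 2, while 4 columns of squares run through all 14 rows.

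In NB4 as a whole, 0.612% of 52807 regions were called lost and 3.67% gained. With all libraries scaled to the shallowest and the smallest listed -log10 p as the minimum, 333 regions were lost and 1872 gained. When -log10 p of at least 20 was also required, 523 regions were lost and 612 gained. With at least 30 the balance turned to 447 lost and 381 gained. Both of these minimums were chosen after seeing the data. They were applied only together with scaling, so the parts of depth and threshold cannot be told apart. Within the 6 genes 47 regions had a peak in NB4, of which 3 were lost and 8 gained, counts that include the regions that chose the genes and from which nothing is read. The ranking had no gap at the members. Below the lost region of NPAS1, with a mean percentile of 67.1, came regions on the minus strand in C7orf50 (66.5 ± 28.1, SD, n = 3) and INHBA (65.6 ± 10.2, SD, n = 3). Below the gained region of MDN1, at 79.0, came regions in PER2 (78.0 ± 2.19, SD, n = 3) and ATOSA (77.7 ± 6.94, SD, n = 3). A gained region outside any of the 6 genes, at 87.4 ± 4.75 (SD, n = 3), ranked between those of ANKRD7 and GAS8.

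Depth differed between the NB4 groups in the direction of the gains. At the depth of NB4 Control 1, the shallowest NB4 library, the 18 peaks of the 6 selecting regions would have had -log10 p of 27.3 to 74.9, which is above 42.5% to 79.6% of the peaks that this library listed. Scaling every library to that depth, with the smallest listed -log10 p as the minimum, removed no NB4 peak of the 6 genes, so the calls could hardly change. With the minimum of 20 all 6 calls were kept. With that of 30 the NPAS1 region lost its call, since Control 3 fell below it, while the other 5 were kept. Ranks depended on this step among lost and gained regions alike, and no member rose. At 20, IRX5, MRPL23 and NPAS1 ranked 29, 44 and 52 among lost regions, and ANKRD7, GAS8 and MDN1 ranked 1, 4 and 11 among gained ones. At 30, IRX5 and MRPL23 ranked 174 and 242, and ANKRD7, GAS8 and MDN1 ranked 5, 12 and 85. The lists hold no values below the threshold of the peak caller, so an unlisted region may still carry weaker enrichment.

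K562 gave a comparison that did not choose the genes. K562 regions were lost in 1.74% and gained in 1.76% of 47629 cases. None of the 6 selecting regions was called in K562. At those of IRX5, MRPL23, NPAS1, ANKRD7 and MDN1 no K562 Control or KD library listed a peak, so no call was possible. The GAS8 region was listed in K562 Control 2 only. Among the 26 regions of these genes with a peak in K562 Control or KD, 1 was lost and 0 were gained. The lost region lay in exon 89 of MDN1 (chromosome 6, 89658654 to 89659028, minus strand), at percentiles of 2.48 and 14.5 in K562 Control, near the bottom of both lists, and 41.1 and 33.1 in K562 WT. In NB4 the same region was listed in all 6 libraries and was higher in KD.

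Peaks per gene and the highest percentile per gene were tested between K562 KD and Control in 12 comparisons with exact permutation tests, two-sided. With 2 libraries against 2 the smallest possible p is 0.3333, so no difference could pass 0.05. MDN1 had 7 and 14 peaks in K562 Control 1 and 2 and 8 and 6 in KD 1 and 2, a difference of -3.5 that was 0 without Control 2 and -7 without Control 1, and was smaller than the pooled SD of 3.64 (exact permutation p = 0.667). GAS8 had 4 and 6 peaks in Control and 5 and 3 in KD, a difference of -1 within the pooled SD of 1.41 (exact permutation p = 0.667), which was 0 without Control 2 or KD 2 and -2 without Control 1 or KD 1. The groups overlapped in both genes. NPAS1 and ANKRD7 had the same mean number of peaks in both groups, 2.5 and 0.5, IRX5 had 0.5 and 0, and MRPL23 had none (exact permutation p = 1 for each).

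The highest percentile per gene moved little in K562. For NPAS1 the Control mean was 55.8 ± 3.501 and the KD mean 58.9 ± 1.87 (SD, n = 2 each, exact permutation p = 0.667), a difference of 3.14 set by the antisense region. For GAS8 it was 91.3 ± 4.14 and 92.6 ± 0.508 (SD, n = 2 each, exact permutation p = 1), and for MDN1 94.7 ± 1.59 and 96.0 ± 1.17 (SD, n = 2 each, exact permutation p = 0.667). ANKRD7 was at 21.0 and 0 in Control and 27.6 and 0 in KD, IRX5 at 0 and 14.1 in Control and 0 in both KD libraries (exact permutation p = 1 for each), where 0 stands for no peak. The direction of the small differences in NPAS1, ANKRD7 and GAS8 depended on the strand counted or on which library was left out.

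**Figure D5:**
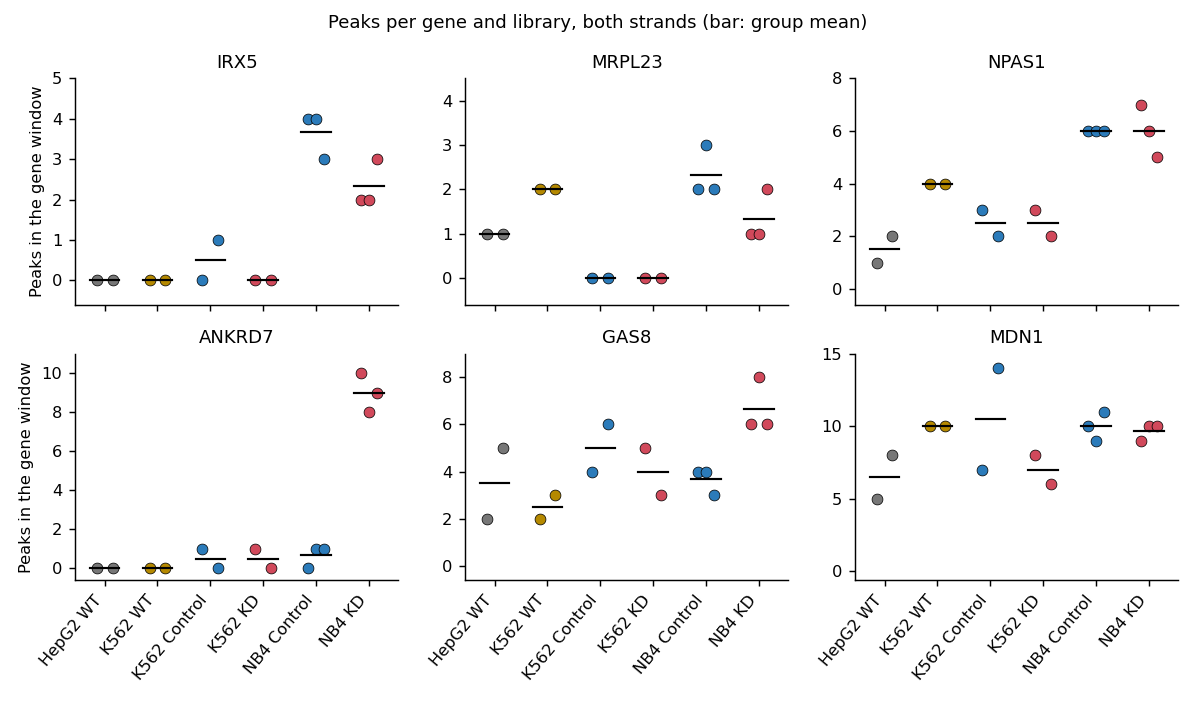
Peaks per gene window on both strands (y axis) in each IP library (points) by group (x axis), with a bar at the group mean, for the 6 genes. ANKRD7 has 0 to 1 peak in NB4 Control, 8 to 10 in NB4 KD and 0 to 1 elsewhere, and NPAS1, MDN1 and GAS8 have peaks in every library. NB4 counts include the regions that chose the genes.

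Across all libraries the genes ordered differently by line. The genes were chosen on NB4 values, so their height in NB4 and their NB4 group differences are description only. The selecting region itself set the highest percentile of ANKRD7 in every NB4 KD library, of IRX5 in NB4 Control 1 and of GAS8 in NB4 KD 1. By the group mean of the highest percentile, GAS8 ranged from 85.6 ± 7.16 in HepG2 to 97.0 ± 2.63 in NB4 Control, and all 6 groups overlapped in range with at least 1 other. MDN1 was highest in K562 KD (96.0 ± 1.17), Control (94.7 ± 1.59) and WT (94.1 ± 0.408), where Control overlapped both neighbours. It was lower in NB4 KD (89.9 ± 2.31), in NB4 Control (84.4 ± 2.83) and in HepG2 (68.9 ± 8.60), and these 3 groups did not overlap. NB4 KD against Control is the contrast that chose MDN1. The share of all genes whose NB4 groups separate in this way is not given here. NPAS1 was highest in NB4, at 95.7 ± 4.49 in KD and 94.1 ± 4.83 in Control, which overlapped, and lay between 55.8 and 71.5 in the other groups. IRX5 was enriched almost only in NB4, at 74.0 ± 6.22 in Control and 65.2 ± 10.1 in KD, with overlap (SD over 2 libraries a group in HepG2 and K562 and 3 in NB4). For MRPL23 the highest NB4 peak was that of the second region above, and MRPL23 stood at 68.0 ± 0.379 in K562 WT and 46.9 ± 18.4 in HepG2 (SD, n = 2 each). For ANKRD7 it was 15.3 ± 18.8 in NB4 Control (SD, n = 3), against 88.4 in KD.

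Of all NB4 regions, 59.2% overlapped a K562 peak on the same strand, as did 46.4% of lost and 58.9% of gained regions. Among the selecting regions MRPL23, GAS8 and MDN1 did, and IRX5, NPAS1 and ANKRD7 were in neither K562 nor HepG2. The share in neither line was 37.1% of all NB4 regions, 48.9% of lost and 37.6% of gained regions.

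Genes of the same families and pathways were counted for lost and gained regions, beside a background of 2.37% of 16137 genes with a region in NB4 that held a lost region and 10.3% that held a gained one. The shares in K562 were 6.13% and 4.9% of 16449 genes. Every list held a member chosen for its own NB4 call, and the lists were chosen with earlier results known. The NB4 counts are therefore not read as a result about a family or pathway. Of 7 genes of the IRX family and CRNDE, 2 had a region in NB4, and only IRX5 had one lost. Of 16 bHLH-PAS factors, 7 had a region in NB4, with NPAS1 lost and AHRR and BMAL2 gained. BMAL2, a partner of CLOCK in the circadian clock, had gained regions in the sense direction at mean percentiles of 37.8 ± 15.1 and 17.9 ± 4.51, and AHRR, the repressor of the aryl hydrocarbon receptor, at 17.8 ± 12.8 (SD, n = 3 each). In K562 HIF1A, the oxygen-regulated factor of that family, held a lost region in the sense direction and a gained region on the opposite strand.

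Of 78 mitochondrial ribosomal protein genes, 66 had a region in NB4. MRPL23 and MRPL28 held lost regions, that of MRPL28 at 33.6 ± 8.98 (SD, n = 3), and MRPL1, MRPL45 and MRPS34 gained ones at mean percentiles of 8.51 to 27.3. In K562, 62 had a region, with 6 genes at which a region was lost and 3 at which a region was gained (MRPS16, MRPS22 and MRPS6). MRPS22 held both, the gained region in the sense direction and the lost region on the opposite strand. Around MRPL23 in 11p15.5, 4 of 11 genes had a region in NB4. The lncRNA MRPL23-AS1 held a lost region on the strand opposite to its own, at 14.9 ± 6.11, and LSP1, an actin-binding protein of leukocytes, a gained region at 46.1 ± 26.7 (SD, n = 3 each).

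Of 11 matched genes of the nexin-dynein regulatory complex, 9 had a region in NB4. A gained region was held by 4 of these, GAS8 included, beside 10.3% of all genes with a region in NB4. EFCAB2 was at 53.1 ± 9.56, FBXL13 at 26.8 ± 8.63 and 17.4 ± 16.7 in 2 regions, and CCDC65, on the opposite strand, at 16.9 ± 14.95 (SD, n = 3 each). In K562 FBXL13 held a gained region on the opposite strand, unlike its NB4 regions, at 8.56 ± 6.65 (SD, n = 2). Of 11 pre-60S maturation factors, 10 had a region in NB4. MDN1 and TEX10, a subunit of the complex that works beside midasin, held gained regions. Those of TEX10 were at 35.6 ± 23.5 in the sense direction and 18.6 ± 9.16 on the opposite strand (SD, n = 3 each). In K562 both MDN1 and TEX10 held lost regions, that of TEX10 on the opposite strand. Among the 9 genes of 7q31 around ANKRD7, 3 had a region in NB4 and none but ANKRD7 a gained or lost one.

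Genes whose highest percentile was most like that of each member over the 14 libraries were found by the mean absolute difference. For IRX5 they were ALDH1A3 and its antisense RNA ALDH1A3-AS1, which share their peaks, at 1.898 percentiles. They were TPM4 for MRPL23, at 8.53, TMX4 and ADSS2 for NPAS1, at 4.71 and 4.81, and FGL2 and GAPT for ANKRD7, at 7.15 and 7.58. For GAS8 the nearest was URAHP, at 0.178, whose window overlaps GAS8 and holds the same peaks, followed by NQO1-DT at 2.18. For MDN1 they were NFATC2IP and FARSB, at 2.87 and 2.97. With so many genes to choose from, some are close in any case.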

How the data were processed

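Peak lists of 14 IP libraries were used. According to the study's methods, the authors trimmed reads with Trimmomatic 0.39, aligned them to hg38 with HISAT2 2.1.0 and GENCODE 29, split strands with SAMtools 1.9, and called peaks on each strand with MACS2 at q under 0.01 (reads extended to 150 bases, genome size 1.3e+08, up to 5 duplicates kept). Versions are from the submitters' processing notes. In the deposited lists, the fold ratio over local background, the -log10 p and -log10 q values and the score are output of the authors' peak caller. They are not counts, so no count model was fitted.

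Summits on the 22 autosomes and the sex chromosomes were assigned to genes of GENCODE 44. Ranks and percentiles are those of -log10 q within a list. Pileup and local mean were solved from fold and p. Pileups came out whole (within 0.02 reads) in 11 lists and were taken as rescaled in HepG2 WT 1 and 2 and NB4 Control 3. Effective reads are the background mean times genome size over 150. Steps were tested on simulated data. Named genes were the members, genes at or within 5 kb of the selecting regions, the next 2 lost and 2 gained regions, the 2 most alike genes for each member (1 of them is not reported here, nor are the sequences at ANKRD7 and GAS8), and list genes with a changed region. Members and lists were chosen with earlier results of these data known. Tests were exact permutations over libraries (Python 3.11.15, numpy 2.4.6, pandas 2.3.3, scipy 1.17.1). Alternatives are given in the closing section. Replicate numbers were not used as pairs in the main tests.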

Additional observations from a re-analysis of the deposited data

How the results depend on the processing

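The 6 selecting regions kept their calls at -log10 q of at least 5, with windows of 75 bases either side of the summit, after scaling to the lowest depth (depth matching, which removed no NB4 peak of these genes) and without any single NB4 library, which can only relax the rule. Merging peaks within 150 bases left 5, without ANKRD7. Depth matching with -log10 p of at least 20 left 6 and with at least 30 left 5, without NPAS1, both chosen after seeing the data. Ranks moved more than calls. With summit windows the lost regions ranked 97 to 107 and the gained regions 35 to 54.

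Lost regions in NB4 numbered 323, and 578 with summit windows. Gained regions numbered 1937, and depth matching alone gave 333 lost and 1872 gained. Depth matching with -log10 p of at least 20 gave 523 lost and 612 gained, and at least 30 gave 447 lost and 381 gained, which turns the balance of gains over losses. In K562, summit windows gave 1391 gained regions against 840, and depth matching with -log10 p of at least 20 or 30 gave 371 or 256 lost regions against 827. Without each replicate in turn, lost regions ranged from 448 to 727 in NB4 and from 1287 to 6497 in K562, and gained regions from 2355 to 3706 in NB4 and from 2021 to 3380 in K562.

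For peaks per gene in K562, leaving out 1 library moved NPAS1 and ANKRD7 from 0 to 0.5 or -0.5, IRX5 from -0.5 to between -1 and 0, GAS8 from -1 to between -2 and 0, and MDN1 from -3.5 to between -7 and 0. For the highest percentile per gene, 4 alternatives turned the direction: NPAS1 moved to -8.82 on the strand of the gene alone, ANKRD7 to -7.22 without Control 2 and -10.5 without KD 1, and GAS8 to -1.64 without Control 2. Without each K562 library in turn, ANKRD7 ranged from -10.5 to 17.1 and GAS8 from -1.64 to 4.21. Deviations of same-numbered Control and KD libraries showed no positive correlation (-0.072 in K562 and -0.114 to -0.035 in NB4). With 2 libraries a group, the K562 deviations mirror each other and give only 1 value. Whether the numbers mark pairs is therefore not settled. With the replicate block the differences stayed the same, such as -3.5 peaks for MDN1 and -1 for GAS8, and the smallest p that 2 pairs allow is 0.5.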
